A study of Mus musculus with 8 samples.

Results

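The MAP kinase cascade and its best known inhibitors were followed here through lists of N6-methyladenosine (m6A) peaks from mouse macrophages with and without *Mettl3*, the catalytic subunit of the m6A methyltransferase. The members were all protein-coding genes of the GENCODE M21 annotation whose symbol starts with Map4k, Map3k, Map2k, Mapk, Mapkapk, Dusp or Spry followed by a digit. They numbered 79 of 21951 protein-coding genes. The symbol rule uses no measured value, but it was chosen with earlier results of these data known. A peak was listed on 43 of the 79 genes (54.4%) in at least 1 list, against 7055 of all 21951 genes (32.1%).

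A MAP kinase cascade passes a signal through kinases that activate each other in turn. A MAP4K or a small GTPase activates a MAP3K, the MAP3K phosphorylates a MAP2K, and the MAP2K phosphorylates a MAP kinase of the ERK, JNK or p38 type, which acts on transcription factors and on downstream kinases. In macrophages the cascade carries signals from M-CSF, from Toll-like receptors and from stress. Some dual-specificity phosphatases (Dusp) remove the activating phosphates from MAP kinases, and Sprouty proteins (Spry) restrain receptor signalling to ERK. The members were taken by symbol, so not every Dusp gene among them need act on a MAP kinase.

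Bone marrow-derived macrophages (BMDMs) were grown from the femur and tibia of C57BL/6 mice of 8 weeks with 40 ng/mL M-CSF, a macrophage growth factor, for 7 days. The labels name the groups wild type and Mettl3-/-. By the study's methods the wild-type mice (WT) were Mettl3 fl/fl Lyz2 +/+ and the others (KO) Mettl3 fl/fl Lyz2 cre/+, so that both groups carried the floxed allele and the KO group alone carried Cre, which the Lyz2 locus drives in myeloid cells and not in macrophages alone. Each group had 2 mice, and an m6A immunoprecipitation (IP) and an input library of each mouse (8 libraries in all) gave 1 peak list per mouse. The WT lists (WT-1 and WT-2) held 6159 and 6263 peaks and the KO lists (KO-1 and KO-2) 6378 and 6684 peaks. They give the position and a score of each peak and no read counts, so sequencing depth and transcript levels are unknown, and a gene without a listed peak may be unmethylated, weakly expressed or below the threshold of the peak caller, which cannot be told apart.
*Mettl3* itself had 0 peaks in each list, so the deleted gene gave no check of the labels. Of 10 macrophage markers, 4 had a peak in any list and *Mertk* had one in all 4, while *Csf1r*, *Adgre1*, *Itgam*, *Cd68*, *Lyz2* and *Spi1* had none. None of the 3 B cell and 3 neutrophil markers had a peak. Of 4 T cell markers *Cd4* had 1 peak in each WT list, and of 3 fibroblast markers *Pdgfra* had a peak in every list but WT-2 and *Col1a1* in KO-1. A peak is not a level of expression, so this neither shows nor refutes the identity of the cells.

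METTL3 prefers the sequence GGAC, in which the A is methylated. The sequences below carry the regions that the results turn on, read from the RefSeq FASTA of GRCm38.p6 (mm10) on the strand of the transcript, 5′ to 3′, with GGAC in capitals. The first set has stretches of CDS in which the peaks of all 4 lists overlapped and GGAC stands 3 times within 120 bases. They lie in exon 14 of *Map3k1*, exon 3 of *Map3k4*, exon 2 of *Dusp6* and exon 2 of *Spry2*, at chr13:111755885-111756004 (minus strand), chr17:12271801-12271920 (minus strand), chr10:99264626-99264745 (plus strand) and chr14:105893041-105893160 (minus strand).
Map3k1: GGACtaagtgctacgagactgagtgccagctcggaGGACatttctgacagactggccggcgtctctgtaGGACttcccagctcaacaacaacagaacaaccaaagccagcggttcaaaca
Map3k4: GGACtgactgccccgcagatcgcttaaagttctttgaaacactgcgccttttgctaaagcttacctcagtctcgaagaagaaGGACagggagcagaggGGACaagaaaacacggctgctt
Dusp6: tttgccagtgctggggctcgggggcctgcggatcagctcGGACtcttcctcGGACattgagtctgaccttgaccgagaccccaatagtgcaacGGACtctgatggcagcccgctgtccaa
Spry2: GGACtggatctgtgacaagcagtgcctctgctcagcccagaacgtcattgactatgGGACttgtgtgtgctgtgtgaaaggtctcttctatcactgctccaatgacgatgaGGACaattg

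The second set has stretches centred on a GGAC site, with 13 bases on each side, from other regions with a peak in all 4 lists. Here and in the third set only central sites followed by T (GGACT) are printed, so the sets do not show how often T follows GGAC. In the bases common to the lists, *Dusp1* held 5 GGAC and 2 GGACT, and *Mapk14* 9 and 3. *Map3k8*, with 1 GGAC and 0 GGACT, is not printed. The *Dusp1* site lies in the 5′-UTR at chr17:26508396-26508425 (minus strand), and the *Mapk6* and *Mapk7* sites lie in the CDS at chr9:75398055-75398084 and chr11:61490911-61490940 (both minus strand). The *Dusp4* site, at chr8:34818770-34818799 (plus strand), begins on the last base of the stop codon, and a further GGAC follows it within the stretch. The *Dusp3*, *Map4k4* and *Map3k1* sites lie in the 3′-UTR at chr11:101973453-101973482 (minus strand), chr1:40024984-40025013 (plus strand) and chr13:111748650-111748679 (minus strand).
Dusp1: agcgagcacttggGGACttagggccacagg
Mapk6: gctctaggtacatGGACttaaaaccattgg
Mapk7: tggctgagattgaGGACttccatgcacgac
Dusp4: cccccagctgttaGGACtcgtctctGGACc
Dusp3: cataatcctcttgGGACttcacgttctcat
Map4k4: agtgcttgggaatGGACtcagaccgggaag
Map3k1: cgtgcctttcacaGGACtggctctggggga

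The third set comes from regions that differed by genotype, each with a peak in both lists of a genotype and in neither list of the other. The first 4 are from regions with WT peaks, in the 3′-UTR of *Mapk14* at chr17:28747439-28747468 (plus strand), just before the stop codon of *Dusp7* at chr9:106373810-106373839 (plus strand), in the distal 3′-UTR of *Map3k1* at chr13:111746829-111746858 (minus strand) and in exon 2 of *Map3k4* at chr17:12278041-12278070 (minus strand). The last is from the region with KO peaks, in the 3′-UTR of *Dusp5* at chr19:53541504-53541533 (plus strand).
Mapk14: gagtcctctcctaGGACtatccccggttct
Dusp7: tggggcagctgctGGACtttgagcGGACgc
Map3k1: ttggatcaaagctGGACtgaaaattgtact
Map3k4: aatccgatccagaGGACttttctgatgaaa
Dusp5: ggatgggctctcgGGACtgtatggaaggcc

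The number of member genes with a peak was 30 and 27 in WT-1 and WT-2, and 28 and 26 in KO-1 and KO-2. The lists of the genotypes overlapped, and the WT mean of 28.5 ± 2.12 (SD, n = 2) stood against a KO mean of 27.0 ± 1.41 (SD, n = 2), with p = 0.667 in a two-sided exact permutation test that cannot go below 0.333 with 2 lists a group. These genes carried 41, 39, 39 and 31 peaks, and KO-2 was the lowest. The mean number of peaks was 40.0 ± 1.41 (SD, n = 2) for the WT lists and 35.0 ± 5.66 (SD, n = 2) for the KO lists (exact permutation, two-sided, p = 0.667). Over all protein-coding genes both means were higher in KO. Peaks numbered 5991 and 6091 in the WT and 6187 and 6484 in the KO lists. Genes with a peak numbered 4220 and 4378 in the WT and 4234 and 4485 in the KO lists.
WT-1 and KO-1 had 24 member genes in common, which was 80.0% of the WT-1 and 85.7% of the KO-1 genes. The WT lists had 22 in common (73.3% of WT-1 and 81.5% of WT-2) and the KO lists 19 (67.9% of KO-1 and 73.1% of KO-2). Of the genes with a peak in either list of a pair, the share with a peak in both was 0.706 for WT-1 and KO-1, 0.629 for the WT lists and 0.543 for the KO lists. Over all protein-coding genes it was 0.530, 0.494 and 0.595 in the same order. The other pairs across the genotypes had shares of 0.618 (WT-2 and KO-1), 0.556 (WT-1 and KO-2) and 0.472 (WT-2 and KO-2). For these pairs the shares over all protein-coding genes were 0.508, 0.525 and 0.503.

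**Figure D1:**
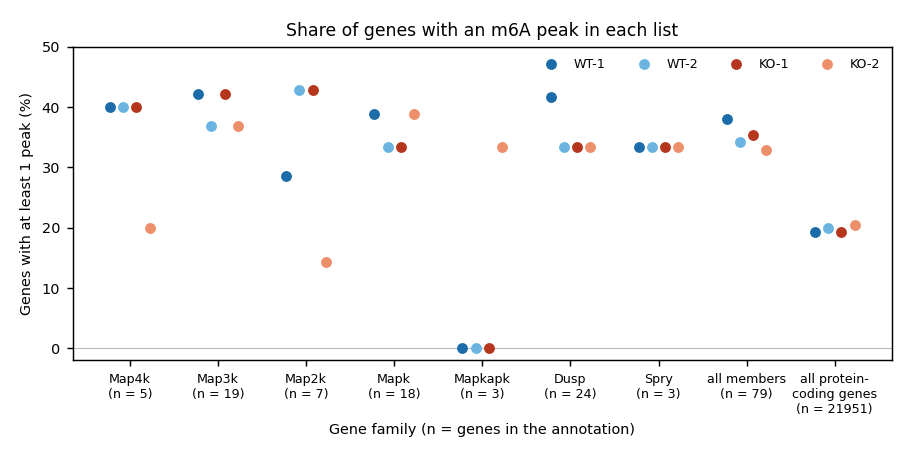
Percentage of the genes of each family (y axis) with at least 1 peak in each list, with 1 point per list and all members and all protein-coding genes on the right. Between 32.9% and 38.0% of the members had a peak in a list, against 19.2% to 20.4% of all protein-coding genes, and the WT and KO points of the members interleave.

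A peak was found in all 4 lists on 16 of the 43 genes (37.2%), where 30.4% of the 7055 protein-coding genes with any peak met this criterion. The 16 genes were *Map4k4*, *Map3k1*, *Map3k4*, *Map3k7*, *Map3k8*, *Map2k4*, *Mapk6*, *Mapk7*, *Mapk1ip1l*, *Mapk8ip3*, *Dusp1*, *Dusp3*, *Dusp4*, *Dusp6*, *Dusp16* and *Spry2*. WT-only genes, those on which both WT lists and no KO list had a peak, numbered 2 of the 43 (4.65%), *Map3k5* and *Mapk14*, against 3.84% of the 7055. KO-only genes, the reverse, numbered 0 of the 43, against 4.88% of the 7055. Of the other members, 7 had a peak in 3 lists, 6 in 2 lists and 14 in 1 list, and 36 had none.
Merging the peaks that overlapped each other gave 75 regions on the members. All 4 lists had a peak in 13 of these regions (17.3%), called recurrent below, against 18.1% of all regions on protein-coding genes. Both WT lists and neither KO list had a peak in 5 regions (6.67%), against 3.33% of all regions, and both KO lists and neither WT list in 1 region (1.33%), against 6.10% of all regions. These counts rest on few regions and on presence or absence in 2 mice per genotype. With 1 list left out the remaining list stands for its genotype, and the 5 WT-only regions then became 15 without WT replicate 1, 14 without WT replicate 2 and 8 without KO replicate 1. KO-only regions became 5 without WT replicate 1, 10 without KO replicate 1 and 9 without KO replicate 2. WT-only genes became 5 without either WT list or without KO-1, and KO-only genes became 3 without WT-1, 6 without KO-1 and 2 without KO-2. No share of all regions or genes is given for these settings, so the counts show only how far the calls moved.

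**Figure D2:**
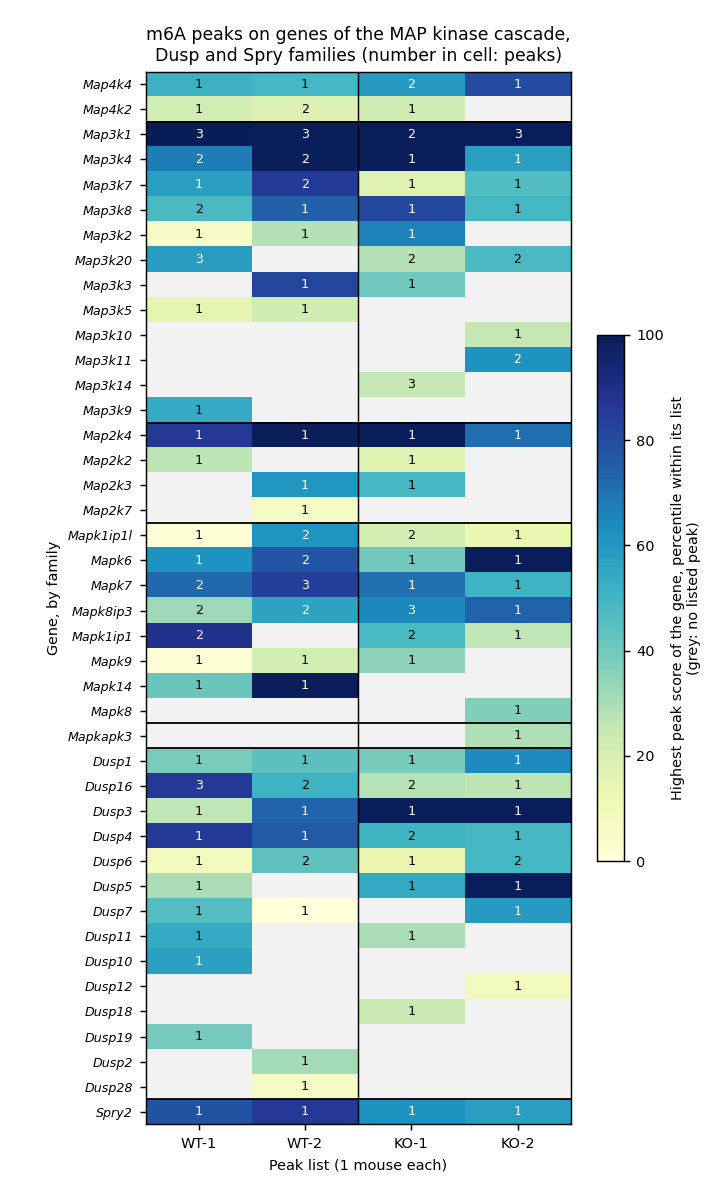
Peaks on 42 members with a peak (rows, by family from MAP4K to Sprouty) in the 4 lists (columns). The number in a cell counts peaks, its colour is the rank of the highest peak score within the list in percentiles, and grey marks no listed peak; 16 rows are filled in all 4 columns, and *Map3k5* and *Mapk14* are filled in the WT columns alone.

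Scores are given below as ranks, the percentage of peaks of the same list with a score at or below that of the peak. A score of 3100 or more was held by 10.3% of the peaks in WT-1, the lowest share, and by 19.5% in KO-2, the highest. A rank above 99 thus stands for a score of 3100 or more, and not for the very first place. Where 4 values are given without names, the WT lists come first and each pair follows the number of the mouse.

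Of the 5 MAP4K genes, which stand at the top of the cascade, 2 had a peak. *Map4k4*, a kinase upstream of JNK, had a peak in the last exon (exon 31), mostly in the 3′-UTR, in all 4 lists, with ranks of 51.4 and 49.6 in WT-1 and WT-2, and 59.2 and 80.3 in KO-1 and KO-2. The peaks of KO-1 and KO-2 spanned the same 1103 bp, chr1:40024629-40025731, and those of WT-1 and WT-2 lay within them. The peak reached over the stop codon in every list but WT-2. KO-1 alone had a further peak that filled exon 1, 374 bp long. *Map4k2* had peaks in every list but KO-2, of rank 22.4 or lower, and WT-1 and WT-2 had none in the same place. *Map4k1*, *Map4k3* and *Map4k5* had no peak.

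The MAP3K genes were the family with the highest share of genes with a peak, 12 of 19 (63.2%). *Map3k1* (MEKK1), a kinase of the JNK and ERK routes, had 3 peaks in each WT list, 2 in KO-1 and 3 in KO-2. The peak in exon 14, an exon of 1252 bp that is all CDS, had a score of 3100.00 in each list. It covered 1105 bp of the exon in WT-1, 713 bp in WT-2 and the whole exon, chr13:111755111-111756362, in KO-1 and KO-2. A second region on *Map3k1*, around the stop codon and in the 3′-UTR, had a peak in all 4 lists with ranks of 47.5, 85.0, 69.1 and 64.5. The third, chr13:111746482-111747227 near the end of the 3′-UTR, had a peak in WT-1 (rank 8.07) and WT-2 (rank 31.9) and in neither KO list. *Map3k1* thus had regions in common to all lists and a region in the WT lists alone.
*Map3k4* (MEKK4), a kinase upstream of p38 and JNK, showed the same arrangement near the start of its CDS. Exon 3, which is 1358 bp long and all CDS, had a peak in all 4 lists, with ranks of 53.7 and 99.1 in WT-1 and WT-2, and 99.4 and 57.9 in KO-1 and KO-2. The peak covered 497 bp in WT-1, 1316 bp in WT-2 and the whole exon in both KO lists. Exon 2, a short exon of 191 bp, lay within a peak of WT-1 (rank 67.5) and of WT-2 (rank 52.8), at chr17:12277760-12278111, and had no peak in either KO list. The part of this region outside the exon belongs to no exon of the transcript with the longest CDS.

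*Map3k8* (Tpl2), which carries Toll-like receptor signals to ERK in macrophages, had a peak in exon 2 over the start of the CDS in all 4 lists, with ranks of 48.0, 74.1, 81.5 and 48.9. Its width was 313 bp and 438 bp in WT-1 and WT-2, and 642 bp and 645 bp in KO-1 and KO-2, with the same upstream end in each list. The exon is 358 bp long, so part of the wider peaks lay outside it. The WT peaks were narrower than the KO peaks here. Over all assigned peaks the median width was also lower in WT. It was 481 bp and 500 bp in WT-1 and WT-2, and 504 bp and 546 bp in KO-1 and KO-2. For the member peaks it was 395 bp and 574 bp in the WT lists and 476 bp and 543 bp in the KO lists, so the genotypes overlapped. A wider KO peak thus does not by itself set a gene apart from other genes.
*Map3k7* (TAK1), which acts behind Toll-like and cytokine receptors, had peaks in all 4 lists, but not in the same place. A peak over the stop codon in exon 17 had ranks of 57.6 in WT-1, 85.4 in WT-2 and 17.0 in KO-1, and KO-2 had none there. The single peak of KO-2, chr4:32020286-32020592, lay farther into the 3′-UTR and held no GGAC.
*Map3k5* (ASK1), a kinase activated by oxidative stress, met the criterion for a WT-only gene. Its peaks lay over the end of the CDS and in the 3′-UTR, at chr10:20141577-20142288 in WT-1 (rank 15.2) and chr10:20141523-20142010 in WT-2 (rank 22.6). Both ranks were low, and the 434 bp common to the peaks held 0 GGAC. Neither KO list had a peak on this gene.

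Of the other MAP3K genes, *Map3k20* (ZAK), a sensor of stalled ribosomes, had peaks in every list but WT-2. They lay in 2 alternative last exons, exon 20 of the transcript with the longest CDS and an exon that ends a shorter coding transcript, and each of the 3 lists had a peak on both. *Map3k14* (NIK), the kinase of non-canonical NF-kB signalling, had 3 peaks in KO-1 and none elsewhere, of rank 25.2 or lower. *Map3k2* had a peak in every list but KO-2, *Map3k3* in WT-2 and KO-1, *Map3k9* in WT-1, and *Map3k10* and *Map3k11* in KO-2. *Map3k6*, *Map3k7cl*, *Map3k12*, *Map3k13*, *Map3k15*, *Map3k19* and *Map3k21* had no peak.

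In the MAP2K tier, *Map2k4* (MKK4), which phosphorylates JNK and p38, had a peak in all 4 lists, and the other 6 genes had one in at most 2. Its peak began 114 bp before the end of the stop codon in each list and ran into the 3′-UTR, over 665 bp and 1090 bp in WT-1 and WT-2, and 1101 bp and 1090 bp in KO-1 and KO-2. The ranks were 86.2, 99.1, 99.6 and 71.0, which placed it among the highest-scoring peaks of the members in both genotypes. The 665 bp common to the lists, chr11:65690140-65690804, held no GGAC, and the longer peaks of the other 3 lists held 3 each.
Of the kinases of ERK, *Map2k2* (MEK2) had a peak over the stop codon in WT-1 (rank 26.9) and KO-1 (rank 17.1), and *Map2k1* (MEK1) had none. Of the kinases of p38, *Map2k3* (MKK3) had a 3′-UTR peak in WT-2 (rank 60.8) and KO-1 (rank 48.6), and *Map2k6* (MKK6) had none. *Map2k7* (MKK7), a kinase of JNK, had a peak in WT-2 of rank 6.63 that also overlapped exons of *Gm49320*. *Map2k5*, the kinase of ERK5, had none. The pattern of *Map2k2* and *Map2k3* joined 1 WT and 1 KO list in each case.

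Among the MAP kinases and their scaffolds, 9 of 18 genes had a peak. *Mapk14* (p38α), the main p38 kinase of macrophages, was the other WT-only gene. Its peak lay in the 3′-UTR of exon 12 at chr17:28746741-28748405 in WT-1, with a score of 387.70 (rank 41.5), and at chr17:28747193-28748405 in WT-2, with a score of 3100.00 (rank 99.1). The peaks ended at the same base, and the 1213 bp that they had in common held 9 GGAC. Neither KO list had a peak anywhere on *Mapk14*. The scores of the WT mice were thus far apart, and with each list cut to its higher-scoring 50% *Mapk14* had a peak in WT-2 alone.
The other classical MAP kinases had few peaks. *Mapk3* (ERK1) had none, and *Mapk8* (JNK1) had 1 in KO-2 (rank 36.9) in the last exon of a coding transcript other than that with the longest CDS. *Mapk9* (JNK2) had a peak in WT-1 (rank 1.51), WT-2 (rank 20.8) and KO-1 (rank 34.9), each in a different place. The KO-1 peak lay on a non-coding transcript of the gene, and with exons of protein-coding transcripts alone *Mapk9* became another WT-only gene, although its WT-1 and WT-2 peaks shared no base.

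The less common MAP kinases had the peaks that recurred. *Mapk6* (ERK3), an atypical MAP kinase, had a peak in exon 2 across the start of the CDS in all 4 lists, with ranks of 61.9 and 77.6 in WT-1 and WT-2, and 40.0 and 99.3 in KO-1 and KO-2. The 682 bp common to the lists held 1 GGAC. *Mapk7* (ERK5) had a peak over exon 4, in the CDS, in all 4 lists. WT-1 had 2 peaks there (ranks 72.1 and 69.3) where WT-2 (rank 84.2), KO-1 (rank 70.4) and KO-2 (rank 51.1) had 1 each. On *Mapk6* the ranks of the genotypes overlapped, and on *Mapk7* the highest rank of each WT list lay above both KO ranks. The highest *Mapk7* scores were 1087.59 and 2731.77 in WT-1 and WT-2, and 1420.12 and 814.50 in KO-1 and KO-2. By score the genotypes thus overlapped on *Mapk7*.
*Mapk8ip3* (JIP3), a scaffold of the JNK cascade, had peaks in all 4 lists, but no region with all of them. Exon 1 had a peak in WT-1 (rank 18.8), KO-1 (rank 64.5) and KO-2 (rank 73.7), and a retained intron had peaks in every list but KO-2. A WT-2 peak of this gene overlapped exons of *Eme2* as much as its own. With exons of protein-coding transcripts alone, *Mapk8ip3* was no longer a gene with a peak in all 4 lists. *Mapk1ip1l* also had peaks on its last exon in all 4 lists without a region common to all. A region in its 3′-UTR had a peak in every list but KO-1, and the KO-1 peak on this exon overlapped a further peak of WT-2. *Mapk1ip1* had a peak near the stop codon in every list but WT-2. *Mapk4*, *Mapk8ip1*, *Mapk8ip2*, *Mapk10*, *Mapk11*, *Mapk12*, *Mapk13* and *Mapk15* had no peak. Of the 3 genes of kinases that p38 activates, *Mapkapk3* had a peak in KO-2 (rank 29.2), and *Mapkapk2* (MK2), which stabilises cytokine mRNAs in macrophages, and *Mapkapk5* had none.

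**Figure D3:**
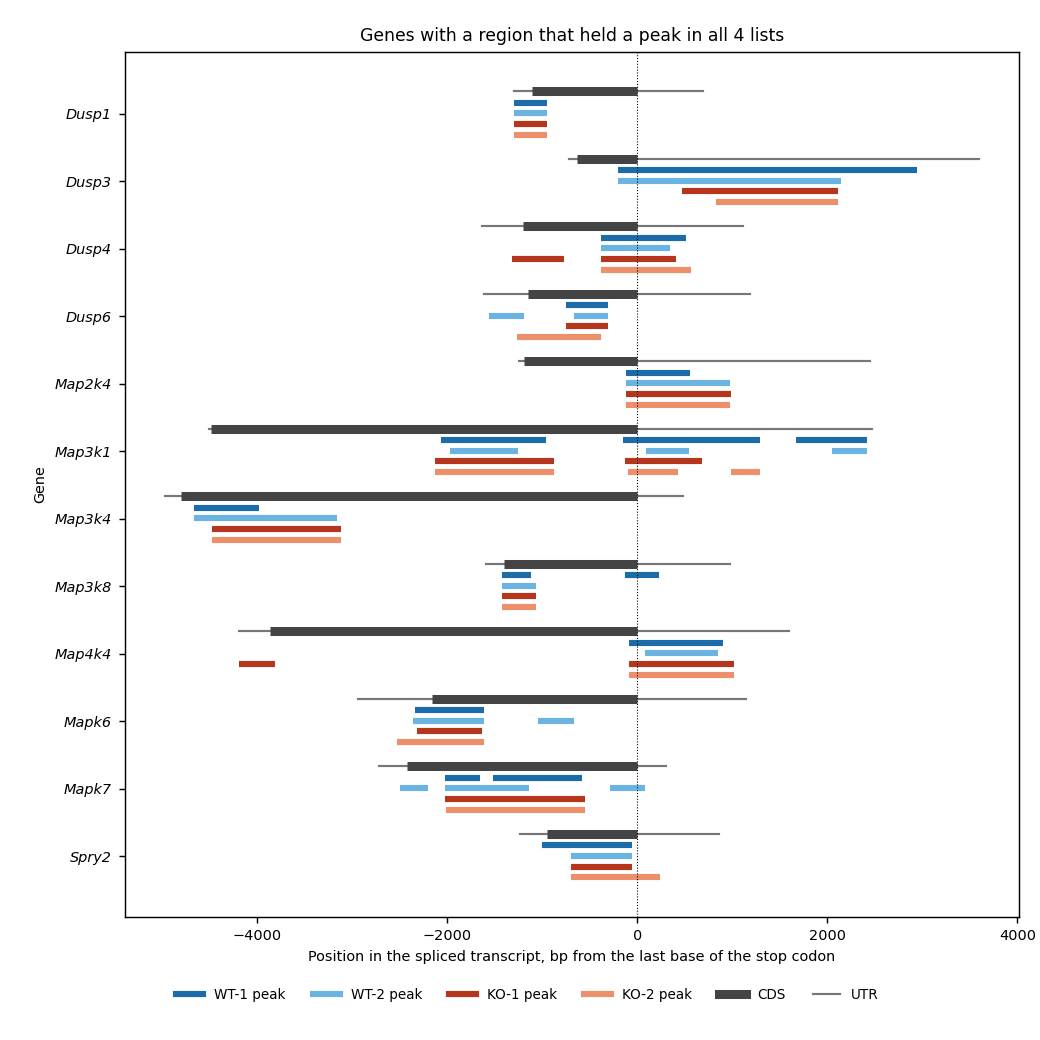
Peaks of the 4 lists on the spliced transcript with the longest CDS of the 12 genes with a region that held a peak in all 4 lists; the x axis is the distance in bp from the last base of the stop codon, thick grey is CDS and thin grey UTR. Peaks in neighbouring exons touch on this axis, as in WT-1 and WT-2 on *Map3k4*, and the distal 3′-UTR peaks of *Map3k1* are present in the WT lists alone.

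The dual-specificity phosphatases had the most genes with a peak, 14 of 24, and 5 of the 16 with a peak in all 4 lists. *Dusp1* (MKP-1), the phosphatase that limits p38 and JNK after Toll-like receptor signals, had the same peak in each list, chr17:26508173-26508519, with 347 bp in exon 1, of which 196 bp were 5′-UTR and 151 bp CDS. Its ranks were 38.4 and 44.4 in WT-1 and WT-2, and 38.7 and 64.0 in KO-1 and KO-2. The peak held 5 GGAC, and it was the only recurrent region of the members whose midpoint lay in the 5′-UTR.
*Dusp4* (MKP-2), a nuclear phosphatase, had a peak over the stop codon in exon 4 in all 4 lists, with scores of 2180.97 and 1835.42 in WT-1 and WT-2, and 591.59 and 746.63 in KO-1 and KO-2. As ranks these were 85.4 and 75.8 in WT against 49.6 and 48.5 in KO BMDMs, so that the genotypes did not overlap. The scores are not normalised between lists and a single peak was not tested. In the higher-scoring 50% of each list, *Dusp4* therefore had a peak in the WT lists alone.
*Dusp6* (MKP-3), which acts on ERK in the cytoplasm, had a peak in exon 2 in all 4 lists, with ranks of 8.52 and 43.7 in WT-1 and WT-2, and 13.2 and 49.4 in KO-1 and KO-2. This exon has 438 bp, all of them CDS, and the 284 bp common to the lists held 5 GGAC. A further region in exon 1 had a peak in WT-2 and KO-2. *Dusp3* (VHR) had wide peaks, mostly in the 3′-UTR, of 3148 bp and 2352 bp in WT-1 and WT-2, and 1636 bp and 1289 bp in KO-1 and KO-2. Its ranks were 26.5 and 73.1 in the WT lists and 99.4 and 99.3 in the KO lists, which both had a score of 3100.00. The KO peaks of *Dusp3* were thus narrower and of higher rank than the WT peaks, and the order of *Dusp3* was opposite to that of *Dusp4*.

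*Dusp16* (MKP-7), a phosphatase of JNK, had peaks in all 4 lists but not in 1 region. Its stop codon region had a peak in WT-1 (rank 7.61), WT-2 (rank 26.5) and KO-1 (rank 10.5), and its exon 2 in WT-1 (rank 85.9) and KO-2 (rank 26.7).
*Dusp7* (MKP-X), a phosphatase of ERK, had a peak over the stop codon in WT-1 (rank 45.7) and WT-2 (rank 0.160), and neither KO list had one there. KO-2 instead had a peak in exon 1 (rank 59.4), so *Dusp7* was not a WT-only gene. The WT-2 peak was among the lowest scores of its list.
*Dusp5*, a nuclear phosphatase of ERK, gave the one KO-only region of the members, chr19:53541063-53541678, over the stop codon, with ranks of 53.9 in KO-1 and 99.3 in KO-2. WT-1 had a peak from 53541691, just behind this region (rank 29.7), and WT-2 had none on the gene. When peaks within 100 bp were merged, the KO and WT-1 peaks fell into 1 region and 0 KO-only regions were left.
*Dusp2*, *Dusp10*, *Dusp12*, *Dusp18*, *Dusp19* and *Dusp28* had a peak in 1 list and *Dusp11* in WT-1 and KO-1. The WT-1 peak of *Dusp19* also overlapped exons of *Nup35*. *Dusp8*, *Dusp9*, *Dusp13*, *Dusp14*, *Dusp15*, *Dusp21*, *Dusp22*, *Dusp23*, *Dusp26* and *Dusp27* had no peak.

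Of the Sprouty genes, *Spry2* had 1 peak in exon 2, over its CDS, in each list. Its ranks were 77.8 and 86.0 in WT-1 and WT-2, and 62.3 and 57.9 in KO-1 and KO-2, so that both WT ranks lay above both KO ranks. The 645 bp common to the lists, chr14:105892859-105893503, held 6 GGAC. *Spry1* and *Spry4* had no peak.

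**Figure D4:**
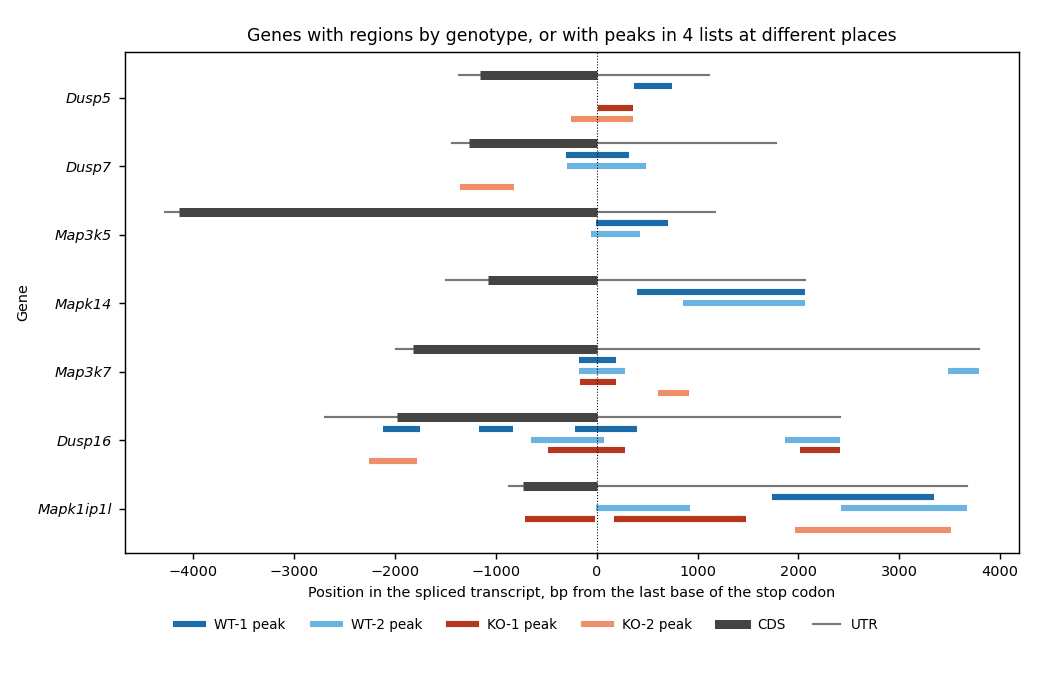
Peaks of the 4 lists on the spliced transcript of 7 genes with peaks that differed in place, drawn with the same axis and colours as the map of recurrent regions. *Map3k5* and *Mapk14* have WT peaks alone, the *Dusp5* peaks of KO-1 and KO-2 end just before that of WT-1 begins, and *Map3k7*, *Dusp16* and *Mapk1ip1l* have a peak in each list without a region common to all.

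Of the 16 genes with a peak in all 4 lists, 12 (75.0%) had a region with a peak in all 4, and the exceptions were *Dusp16*, *Map3k7*, *Mapk1ip1l* and *Mapk8ip3*. Over all genes the share was 85.1% (1827 of 2147). The part common to the lists had its midpoint in the CDS in 8 of the 13 recurrent regions, in the 3′-UTR in 4 and in the 5′-UTR in 1. It held GGAC in 12 of the 13, with *Map2k4* as the exception. The common part was 284 bp (*Dusp6*) to 1286 bp (*Dusp3*) long. So short a motif can stand in such a stretch without being methylated, and its rate outside peaks was not measured. The exon was at least 400 bp long in 12 of the 13, with *Map3k8* (358 bp) as the exception, and the median exon length was 1358 bp. The median exon of all peaks was 1721 to 1809 bp in the lists, but these are single peaks and not recurrent regions. For the counts of place, GGAC, exon length and stop codon no share of all recurrent regions is given. These counts describe the member regions and do not set them apart from other genes. Both WT ranks lay above both KO ranks in 3 of the 13 regions (23.1%), on *Dusp4*, *Mapk7* and *Spry2*, against 9.28% of all recurrent regions, and both KO ranks lay above both WT ranks in 2 (15.4%), on *Dusp3* and *Map4k4*, against 19.0%. A score is not a methylation level, and ranks of scores of 3100 or more counted as equal. By score the genotypes overlapped on *Mapk7*, so its order holds for ranks alone. The region reached over the stop codon in 6 of the 13.

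As a share of all member peaks that could be placed on the transcript with the longest CDS, the CDS held 47.4% and 34.3% in WT-1 and WT-2, and 40.0% and 51.9% in KO-1 and KO-2. The Wilson 95% interval, which covers counting error only, ran from 20.8% to 50.8% for WT-2 and from 34.0% to 69.3% for KO-2 (lowest and highest share). The WT mean of 40.8% ± 9.25 (SD, n = 2) and the KO mean of 45.9% ± 8.38 (SD, n = 2) gave p = 0.667 (exact permutation, two-sided), and the means of all peaks were 48.4% and 53.6%. For all peaks the shares were 49.4% and 47.5% in the WT lists and 54.9% and 52.3% in the KO lists. There the genotypes did not overlap, and the difference of 5.16 percentage points was close to that of the members. The difference of the members, 5.10 percentage points, was less than the spread of their shares between the mice. It turned to -1.44 without WT replicate 2 and to -0.827 without KO replicate 2. It rose to 11.6 without WT replicate 1 and to 12.0 when every exonic base was counted in place of the midpoint (exact permutation, two-sided, p = 0.333, the smallest possible, for the latter). The 3′-UTR held 44.7%, 60.0%, 51.4% and 40.7% of the member peaks, against 47.0%, 49.5%, 40.6% and 44.4% of all peaks. The last exon held 63.0% of the member peaks as a mean of the 4 lists (65.3% for all peaks).
GGAC was found in 87.8% of the member peaks of WT-1, 87.2% of WT-2, 92.3% of KO-1 and 83.9% of KO-2 (two-sided exact permutation test, p = 1), and in 86.8% to 88.5% of all peaks. The members thus had the motif about as often as all genes did, in both genotypes. The difference between the means, 0.597 percentage points, turned to -3.62 without KO replicate 1 and rose to 4.82 without KO replicate 2. With GGAC sought in the central 200 bp of each peak alone it was 13.6 percentage points (exact permutation, two-sided, p = 0.333, the smallest possible). Per kb of exon in the peaks, GGAC numbered 4.64 and 4.92 in WT-1 and WT-2, and 5.66 and 4.95 in KO-1 and KO-2 (exact permutation, two-sided, p = 0.333, the smallest possible), against 4.63 to 4.88 for all peaks. The genotypes did not overlap in this measure for the members, but WT-2 and KO-2 were almost level.

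**Figure D5:**
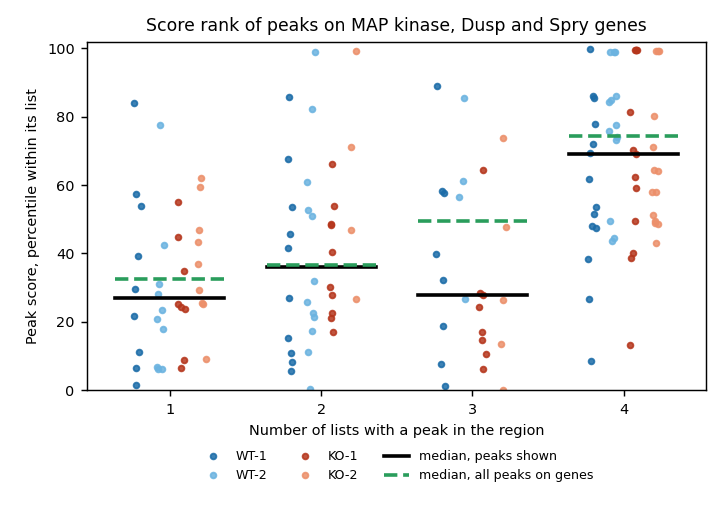
Score rank within its list (y axis, percentile) of each member peak by the number of lists with a peak in its region (x axis), 1 point per peak, coloured by list, with the median of the points (black) and of all peaks on protein-coding genes (green). The median of the members is 69.2 in regions with a peak in all 4 lists and between 26.9 and 36.1 in the others.

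Peaks in regions found in all 4 lists had higher ranks than the rest. The median rank of the members was 69.2 for the 54 peaks of these regions, against 26.9 for regions in 1 list, 36.1 in 2 lists and 27.8 in 3 lists. For all peaks the medians were 74.2, 32.5, 36.6 and 49.3 in the same order, so the member peaks in regions of 3 lists lay below the median of all such peaks. The 6 regions that differed by genotype spanned the whole range of ranks, from 0.160 for *Dusp7* in WT-2 to 99.1 for *Mapk14* in WT-2 and 99.3 for *Dusp5* in KO-2. Whether the absence of such a peak from a list reflects methylation or the threshold of the peak caller was not tested.

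Of 34 other genes of the pathway, 25 had a peak in at least 1 list. Of these 25 genes 7 had a peak in all 4 lists, 3 were WT-only and 1 was KO-only, beside 30.4%, 3.84% and 4.88% of all protein-coding genes with any peak. The 7 were *Spred1*, an inhibitor of ERK signalling, the phosphatase *Ptpn11* (SHP2), *Tab2*, a partner of TAK1, the ubiquitin ligase *Traf6*, the kinases *Taok2* and *Taok3*, and *Rps6ka3* (RSK2), a target of ERK. Both WT lists and neither KO list had a peak on 3, *Araf*, *Nlk* and *Spred2*, the inhibitor of ERK signalling that the study followed further. The study picked *Spred2* for its lower m6A in KO BMDMs in this same sequencing. Its WT-only call was thus known beforehand, and the count of 3 set beside 3.84% includes it. Both KO lists and neither WT list had a peak on *Ksr2*. *Araf*, a RAF kinase, had 1 peak in each WT list, and *Braf* had peaks in WT-1, WT-2 and KO-2. Between the receptors and ERK, genes with a peak in each list thus stood beside genes without any.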

How the data were processed

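MeRIP-Seq peak lists of BMDMs from 2 WT and 2 KO mice were analysed. The submitters' processing notes name cutadapt 1.9.3, HISAT2 2.0.4 and mm10; the peak names begin with MACS, and the settings of the peak caller are not given in the sources used here. The deposited lists hold, per peak, a position and a score that the authors' peak caller made (50.05 to 3233.06, on no stated scale); the lists were made per mouse and not pooled. Starts were read as counted from 0 and are given from 1.

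A peak was assigned to the protein-coding gene with the largest overlap, at least 1 bp, with exons of any of its transcripts on the same strand (GENCODE M21, GRCm38), which placed 97.0% to 97.3% of the peaks. In a list, 43.1% to 51.5% of the peaks had an edge at an exon edge. The midpoint was placed on the coding transcript with the longest CDS, and where it lay in none of its exons, on another transcript. Peaks of the lists that overlapped by 1 bp were merged into regions, and the bases common to the lists in a region were searched for GGAC on the transcript strand. All 79 symbols matched the annotation; 1 further symbol, an antisense transcript of *Map2k3*, is not protein-coding and was left out. Numbers and shares per list were compared with two-sided exact permutation tests over 6 labellings. The analysis used Python 3.11.15, numpy 2.4.6, scipy 1.17.1 and pysam 0.24.0, and was checked on simulated lists. The number of peaks is not a depth, which is unknown.

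Genes were named if they had a peak in all 4 lists or differed by genotype, or belonged to a core of the cascade (*Mapk3*, *Mapk8*, *Mapk9*, *Mapk14*, *Map2k1*, *Map2k2*, *Map2k3*, *Map2k4*, *Map2k6*, *Map2k7*, *Map3k1*, *Map3k5*, *Map3k7*, *Map3k8*, *Mapkapk2*, *Dusp1*, *Dusp4*, *Dusp6*, *Spry1*, *Spry2*, *Spry4*; 1 further core gene and 1 other pathway gene are counted but not reported by name here); remarks on other members were chosen after their values were seen. The members, the 34 other pathway genes and the marker lists were chosen with earlier results of these data known. Alternatives were the higher-scoring 50% of each list, 6159 top peaks per list, a stricter overlap, merging within 100 bp, other ways to place a peak, GGACT, and leaving out each list.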

Additional observations from a re-analysis of the deposited data

How the results depend on the processing

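Of the alternative values of the 10 main results, 71 were labelled the same, 19 counts moved and 5 differences changed sign. The label covered differences of the same sign, counts close to the main one and a difference of 0. That was the difference in member genes without WT replicate 1. The 71 include the values with a replicate block, which could not differ from the main ones. Regions with a peak in all 4 lists, 9 against 13 when lists had to cover 50% of a region, counted as close. Differences of the same sign could still differ in size. The WT-only and KO-only counts were the least stable. In the higher-scoring 50% of each list there were 5 genes and 5 regions with a peak in all 4 lists, 3 WT-only and 2 KO-only regions, 1 KO-only gene (*Dusp5*), and 3 WT-only genes (*Dusp16*, *Dusp4* and *Map3k7*), none of them *Map3k5* or *Mapk14*. These counts are of 27 members, and the shares of all genes were 23.7% with a peak in all 4 lists, 3.14% WT-only and 4.17% KO-only. The CDS difference was then -2.02 percentage points. The alternative keeps fewer peaks in every list. Leaving out a list lets 1 list stand for its genotype, and WT-only genes ranged from 3 (without KO replicate 2) to 5 (without each of the other lists), KO-only genes from 0 to 6 (without KO replicate 1), WT-only regions from 6 to 15 (without WT replicate 1) and KO-only regions from 1 to 10 (without KO replicate 1). The CDS difference ranged from -1.44 (without WT replicate 2), and -0.827 without KO replicate 2, to 11.6 (without WT replicate 1), and the GGAC difference from -3.62 (without KO replicate 1) to 4.82 (without KO replicate 2). KO-only regions numbered 0 when peaks within 100 bp were merged and 2 when a list had to cover at least 50% of a region. With GGACT in place of GGAC the difference was -3.83 percentage points, and with GGAC in the central 200 bp alone 13.6. With every exonic base counted the CDS difference was 12.0. For the other changes the cause was not tested. With exons of protein-coding transcripts alone, chosen as an alternative after seeing the data, 3 genes were WT-only and 15 had a peak in all 4 lists. Apart from the shares of all genes printed above, no share of all genes or regions is given for the alternative counts. They show only how far the calls moved.

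Neither the labels nor the methods tie mice of the same number to a litter or a batch, and the deviations of same-numbered lists from their genotype means had a correlation of -0.00301 over 7055 genes and of -0.00978 over the 43 members, so the numbers were not taken to pair the mice. A replicate block can alter the p-value alone, since the differences between means and the calls do not depend on it. The differences thus stayed at -1.5 member genes and -5 member peaks (exact permutation within pairs, p = 0.5, the smallest possible). Those of CDS and GGAC stayed at 5.10 and 0.597 percentage points, which is no sign of stability. Unknown depth, transcript levels and 2 mice per genotype limit all counts: a peak absent from a list is not a measured level of 0.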
